A study of Mus musculus with 24 samples.

Results

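The cultures studied were isolated as liver endothelial cells, and 10 genes that mark macrophages were followed through them: Lyz2, Cd68, Csf1r, Adgre1, Ptprc, Cd14, C1qa, C1qb, Clec4f and Marco. The members were taken by symbol among the protein-coding rows, and all 10 were found among 21970 protein-coding genes and 56748 genes in all. Cd31+ cells and Cd146+ cells were each transduced by lentivirus with 1 of 4 constructs, and RNA was sequenced 1 week later, with 3 libraries in each of the 8 groups. Silencing compared P16 shRNA with nc shRNA, a hairpin without a coding target, and overexpression compared P16, the P16Ink4a cDNA fused to a green fluorescent protein, with the empty vector. By the methods, all cells came from C57BL/6 mice of 3 months of age, female, were selected on magnetic beads and were kept in culture, so every group, controls included, carried a lentivirus. Nothing in the sources states that the 3 libraries of a group came from separate animals, and p-values then measure only the spread between these libraries.

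Macrophages are phagocytes that clear particles and microbes, and those resident in the liver sinusoids, next to the endothelium, are called Kupffer cells. Their survival depends on the receptor Csf1r and its ligands Csf1 and Il34. Resident macrophages also secrete C1q, which starts the classical complement pathway, and carry lysosomal enzymes in abundance.

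Cdkn2a, the gene that encodes P16Ink4a, was examined first as a check of the labels. In Cd31+ cells it was between 36.7 and 75.6 CPM (counts scaled by library depth after TMM normalization) with nc shRNA and between 5.07 and 9.19 with P16 shRNA. In Cd146+ cells the ranges were 95.1 to 194 CPM and 7.70 to 25.3 CPM. With P16 it reached 138 to 330 CPM against 32.3 to 81.5 with the empty vector in Cd31+ cells, and 228 to 832 against 70.4 to 104 in Cd146+ cells, so the groups did not overlap in any of the 4 comparisons. Total counts lay between 15409767 and 26470392 per library, and 3 counts, taken as the floor, corresponded to 0.113 to 0.195 CPM. In 16 libraries, those of replicate numbers 1, 2 and 3, the Y-linked Ddx3y was above Xist, and in 8, those of numbers 4, 5 and 6, Xist was above Ddx3y, which goes against the methods' female mice for the former. The 3 Cd146+ libraries of number 3 stood apart, with a summed level of 14 endothelial genes of 17.4 to 25.4 FPKM, against 179 to 411 in the other Cd146+ libraries. The Cd146+ empty vector library of number 4 had the lowest sum over 14 mesenchymal genes among Cd146+ libraries, 1438 FPKM. Those of number 1 followed with 1901 and 2187 FPKM, and the others had 3932 to 5025 FPKM.

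Lyz2, which encodes the lysozyme of myeloid cells, was the most abundant of the 10 genes per length, with 48.2 ± 41.5 FPKM (SD, n = 24 libraries; FPKM are reads scaled by gene length and library depth). It made up between 34.0% and 72.9% of the members' summed FPKM, with a median of 60.4%. Its neighbour Lyz1, a near-identical copy with which reads could be shared, had 0 to 13 counts per library. The complement chains C1qa and C1qb followed with 11.7 ± 13.4 and 9.04 ± 8.84 FPKM, and Cd14, the co-receptor for endotoxin, had 6.25 ± 5.85 FPKM. The lysosomal glycoprotein Cd68 was at 5.30 ± 3.97 FPKM. The ranges of mean ± SD of these 4 overlapped, and their order was not tested within libraries.

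Csf1r, the receptor on which macrophages depend, had 1.66 ± 1.22 FPKM, and Adgre1, which encodes the surface antigen F4/80, had 1.27 ± 1.36 FPKM. Ptprc, the phosphatase CD45 carried by leukocytes in general, was lowest of the 8 detected members at 0.112 ± 0.120 FPKM. All 8 had at least 1 count in each of the 24 libraries. The ligand Csf1 was at 341 ± 79.8 FPKM in Cd31+ cells and 404 ± 94.1 in Cd146+ cells (SD, n = 12 each), and Il34 at 0.379 ± 0.244 and 1.25 ± 1.58 FPKM.

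The 2 members that mark Kupffer cells or scavenging liver macrophages were at or under the floor in every library. Clec4f, a lectin of Kupffer cells, had 7 counts over 24 libraries (95% exact Poisson interval 2.81 to 14.4), with at most 2 in any library. Marco, a scavenger receptor, had 3 counts in all (0.619 to 8.77), with at most 1. Intervals cover counting error only. Of a list of 12 other Kupffer cell genes, Timd4 had at most 2 counts in any library, Adgre4 at most 6, Spic and Clec1b at most 9, Folr2 at most 24 and Vsig4 at most 44. The others were detected, with up to 147 counts of Nr1h3, a nuclear receptor for sterols, 224 of Cd5l, a secreted protein of tissue macrophages, 596 of Xlr and 748 of the iron exporter Slc40a1. Id3 and Hmox1, which many cell types carry, reached 12587 and 11592 counts.

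The letters GAGGAA, the core of a site known for PU.1, the factor encoded by Spi1 that macrophages require, were searched on both strands of the promoter windows of RefSeq (build GRCm38.p6, 250 bases before to 50 after a start site). Windows were held for 6 of the members and were searched for Cd68, Marco, Lyz2, Ptprc, C1qb and Clec4f. The match was present in at least 1 window of Cd68, Marco, Ptprc and C1qb and in none of Lyz2 and Clec4f. Of all 27025 genes, 31.25% held it in at least 1 window, and of 32851 windows, 28.3% did. For Ptprc, 1 window held the match and 1 did not. The 3 stretches below are shown because their genes were detected members; capitals mark the match, all on the minus strand, at chr4:136886213-136886242, chr1:138175446-138175475 and chr11:69666378-69666407.
C1qb: gcagcaggatggGAGGAAcagaggggtgat
Ptprc: tgttttcctttaGAGGAAaattgagacgaa
Cd68: tttcttaccaatGAGGAAagggcttcccat
A match describes letters in the window and says nothing of binding.

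**Figure D1:**
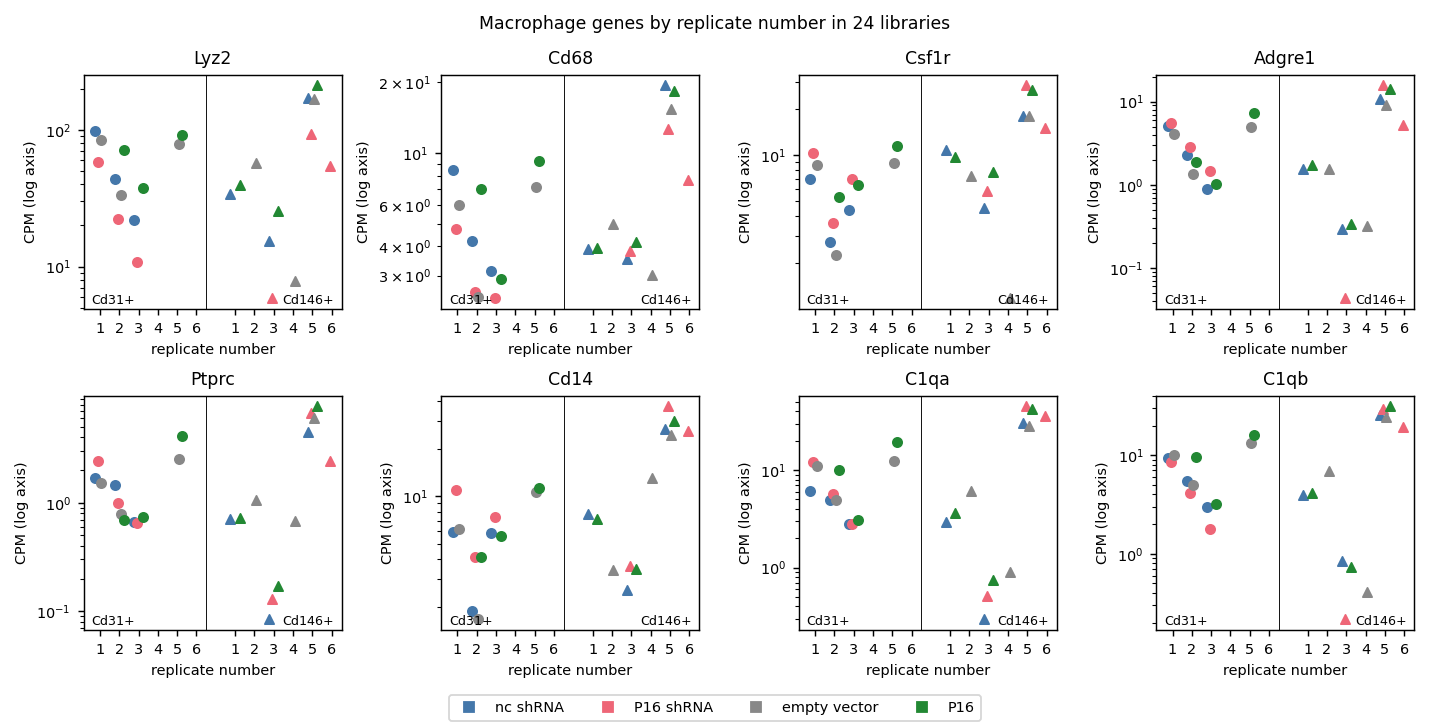
CPM (log axis) of the 8 detected genes in each of the 24 libraries, ordered by replicate number, with Cd31+ cells as circles on the left and Cd146+ cells as triangles on the right and colours for the constructs. In Cd146+ cells Lyz2 ran from 5.85 CPM in a library of number 3 to 212 CPM in one of number 5.

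The members' levels differed with the replicate number of the library. With replicate number tested beside construct in each population (edgeR quasi-likelihood F test, Benjamini-Hochberg adjustment, chosen after seeing the data), all 8 tested members passed in Cd31+ cells, with adjusted p between 4.03e-06 and 0.00200, against 29.0% of 15426 genes. In Cd146+ cells all 8 passed as well, with adjusted p between 6.68e-07 and 0.000117, against 59.7% of 15915 genes. Clec4f and Marco did not pass the low-count filter.

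C1qa showed this range in full. In Cd146+ cells it was at 30.7 (nc shRNA), 45.2 (P16 shRNA), 28.6 (empty vector) and 42.5 CPM (P16) in the libraries of number 5, and at 35.9 CPM in the P16 shRNA library of number 6. In the libraries of number 3 it was at 0.293 (nc shRNA), 0.516 (P16 shRNA) and 0.741 CPM (P16), from 7, 12 and 13 counts. The libraries of numbers 5 and 6 lay above every other Cd146+ library, whichever construct the cells carried. In Cd31+ cells C1qa lay between 12.5 and 19.6 CPM in number 5, between 6.17 and 12.02 in number 1, between 4.88 and 10.1 in number 2 and between 2.77 and 3.10 in number 3.

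The members did not all fall alike in the Cd146+ libraries of number 3. Adgre1 had 1 to 7 counts there, Ptprc 2 or 3 and C1qb 5 to 20, whereas Csf1r kept 108 to 137 counts, Cd68 73 to 89 and Cd14 61 to 84. In the empty vector library of number 4, Cd14 had 289 counts (13.1 CPM) while Csf1r had 26, Adgre1 7 and C1qb 9. Csf1r was lower there than in any other of the 24 libraries, whereas Cd14 was above all Cd146+ libraries but those of numbers 5 and 6.

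Across the 24 libraries, Pearson's r of log2 CPM between Adgre1, Ptprc, C1qa and C1qb lay between 0.904 and 0.964. It was between 0.520 and 0.758 for Cd14 with the other 7, and between 0.635 and 0.770 for Csf1r with the other 7. These values describe libraries that share replicate numbers and cultures and are not independent.

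Other genes with the members' pattern were sought by Pearson's r with the mean log2 CPM of the 8 detected members over the 24 libraries. The 10 closest protein-coding genes were Ctss (r = 0.976), Nckap1l, C3ar1, Tlr13, Lilrb4a, Dock2, Lilrb4b, Tyrobp, Spi1 and Cd52 (r = 0.964). Ctss encodes a lysosomal protease, Tyrobp a signalling adaptor of myeloid receptors and C3ar1 a receptor for a complement fragment. Their r was between 0.970 and 0.987 when each of the 8 groups was set to its own mean.

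**Figure D2:**
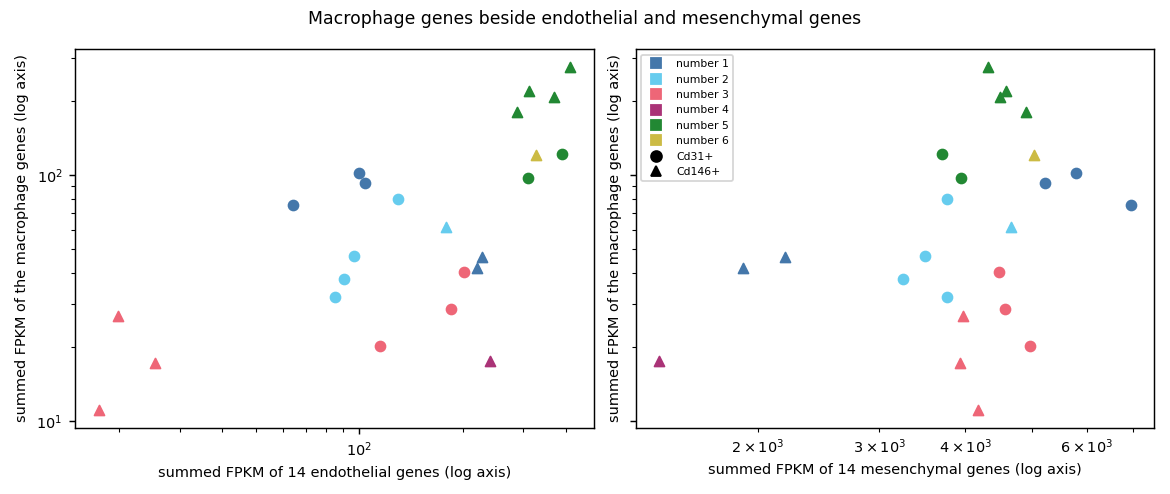
Summed FPKM of the 10 macrophage genes against summed FPKM of 14 endothelial (left) and 14 mesenchymal genes (right), all on log axes, 1 point per library, coloured by replicate number. The Cd146+ libraries of number 3 lie at 17.4 to 25.4 FPKM of endothelial genes and 11.1 to 26.7 FPKM of macrophage genes.

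The marker lists of other cell types also differed between numbers, but did not always follow the members. In Cd146+ cells the members' summed level was 181 to 276 FPKM in number 5 and 11.1 to 26.7 FPKM in number 3, beside 288 to 411 and 17.4 to 25.4 FPKM of the endothelial list, and 4312 to 4896 and 3932 to 4166 FPKM of the mesenchymal list. In Cd31+ cells the members summed to 20.2 to 40.6 FPKM in number 3 and 75.8 to 102 FPKM in number 1. The endothelial list went the other way there, from 115 FPKM upward in number 3 and from 64.0 to 104 FPKM in number 1. In Cd146+ number 4 the members summed to 17.5 FPKM, beside 240 FPKM of the endothelial list. Replicate number was called for 13 of 13 tested endothelial genes in Cd31+ cells and 14 of 14 in Cd146+ cells. Of all genes tested, 29.0% and 59.7% were called. Numbers 4, 5 and 6 were also those with Xist above Ddx3y, and number 4 was low in the detected members other than Cd14. Ptprc, at 0.678 CPM there, was under every other Cd146+ library but those of number 3. Fewer macrophages and less of these RNAs per cell cannot be told apart in bulk libraries. Of 10 hepatocyte genes, Trf, a transferrin that many cells make, was detected throughout, and Hnf4a, a nuclear factor of hepatocytes, had at most 7 counts in a Cd31+ library and 61 in a Cd146+ library. The other 8 were at or near 0, with at most 13 counts of Alb in any library. A list of 6 cholangiocyte genes summed to 26.5 to 575 FPKM in Cd31+ and 20.9 to 174 FPKM in Cd146+ cells, most abundant among them Spp1, a secreted phosphoprotein that macrophages and other cells also make. Lymphoid genes summed to at most 0.718 FPKM. The part of these lists in the members' range was not tested.

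Silencing was compared first without regard to replicate number. None of the 8 tested members passed the adjusted threshold in Cd31+ cells, where 1.30% of 14358 genes did, or in Cd146+ cells, where 0.00% of 15124 did (edgeR quasi-likelihood test, Benjamini-Hochberg adjustment). At an unadjusted p under 0.05, 0 of the 8 passed in either population, against 19.8% and 11.6% of all genes, and by the DESeq2 Wald test, adjusted, 0 passed as well, against 7.69% and 2.21%, with no adjusted p given for Ptprc in Cd31+ cells. The members' median log2 fold change was 0.18 in Cd31+ cells and 0.73 in Cd146+ cells, beside 0.00 and 0.03 over all genes tested. In Cd146+ cells the groups shared numbers 3 and 5, but differed in nc shRNA number 1 and P16 shRNA number 6. The members summed to 41.9 and 121 FPKM in these 2 libraries. With a term for the sex-linked transcripts, chosen after seeing the data, Csf1r, Adgre1, Ptprc, Cd14, C1qa and C1qb turned negative in Cd146+ cells. Standard errors were between 0.45 and 0.76 in Cd31+ cells and between 0.68 and 1.72 in Cd146+ cells.

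Same-numbered libraries deviated together within each population, so values were also set side by side within a number, with 3 such pairs in Cd31+ cells and 2 in Cd146+ cells. Lyz2 went from 97.9 to 58.1, from 43.3 to 22.2 and from 21.9 to 10.8 CPM in Cd31+ numbers 1, 2 and 3, and from 15.2 to 5.85 and from 171 to 93.2 CPM in Cd146+ numbers 3 and 5. It was lower with P16 shRNA in 5 of 5 pairs, as were 20.5% of 14123 genes. With the number as a block over the 6 libraries, Lyz2 fell in Cd31+ cells (log2 fold change -0.89 ± 0.10 SE, edgeR adjusted p = 0.000779).
In Cd146+ cells the block over the 6 libraries gave -1.10 ± 0.16 with an adjusted p of 0.136 (edgeR), and the block over the population's 12 libraries -1.11 ± 0.19 with 0.0157.

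Marker lists moved with the construct in the same pairs. The members' summed level was lower with P16 shRNA in 5 of 5 pairs, going from 102 to 75.8, from 46.8 to 31.9 and from 28.5 to 20.2 FPKM in Cd31+ numbers 1, 2 and 3 and from 17.3 to 11.1 and from 220 to 181 FPKM in Cd146+ numbers 3 and 5. Lyz2, with a median of 60.4% of this sum over the 24 libraries, fell in the same pairs. Of the other detected members, Cd14 and Csf1r were higher in 5 of 5 pairs, C1qa and Adgre1 in 4 of 5 and Ptprc in 3 of 5. Cd68 and C1qb were lower in 4 of 5. The endothelial list was lower in 5 of 5 pairs too, in the same order from 99.7 to 64.0, 96.4 to 84.8, 185 to 115, 25.4 to 17.4 and 312 to 288 FPKM. The cholangiocyte list was higher in 5 of 5, from 478 to 575, 51.2 to 132, 57.5 to 110, 29.1 to 95.4 and 127 to 174 FPKM. The mesenchymal and lymphoid lists were also higher in 5 of 5 pairs, and a list of neutrophil and mast cell genes lower in 5 of 5. Of 10 lymphoid genes, 6 in Cd31+ and 7 in Cd146+ cells had at most 3 counts in every library. The same held for 6 and 3 of the 9 neutrophil and mast cell genes. The sex-linked list was lower in 5 of 5 pairs as well, whereas the sinusoidal endothelial, hepatocyte and endotoxin receptor lists were higher in 3 of 5. Lists of 45 other macrophage genes and 12 Kupffer cell genes were lower in 5 of 5. Those of 9 antigen presenting cell genes and 2 Csf1 receptor ligands were higher in 5 of 5. Most lists thus went 1 way in 5 of 5 pairs. The part of these lists in the members' values with silencing was not tested.

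Cd14 and Csf1r went the other way from Lyz2. Cd14 was at 5.97, 1.89 and 5.82 CPM with nc shRNA and at 11.01, 4.12 and 7.39 CPM with P16 shRNA in Cd31+ numbers 1, 2 and 3. In Cd146+ numbers 3 and 5 it was at 2.56 and 26.5 CPM with nc shRNA and at 3.61 and 37.1 CPM with P16 shRNA. It was higher in 5 of 5 pairs, as was Csf1r, beside 19.1% of all genes. With the block, Cd14 rose in Cd31+ cells (0.76 ± 0.21, edgeR adjusted p = 0.0343), and Csf1r gave 0.56 ± 0.18 with an adjusted p of 0.0566. In Cd146+ cells the 12-library block gave 0.42 ± 0.16 for Cd14 and 0.39 ± 0.22 for Csf1r, with edgeR adjusted p of 0.128 and 0.291.

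With the block, 2 of the 8 members were called in Cd31+ cells beside 18.8% of all genes tested, and with the 12-library block 1 of the 8 was called in Cd146+ cells beside 8.33%. A share of 2 in 8 is near that background. The differences between the populations in the effect of silencing gave no call among the 8 members or among all genes tested, 0.00% (interaction term, edgeR, unadjusted p between 0.621 and 0.994), and neither did those of overexpression (0.00% of all genes, unadjusted p between 0.652 and 0.997).

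**Figure D3:**
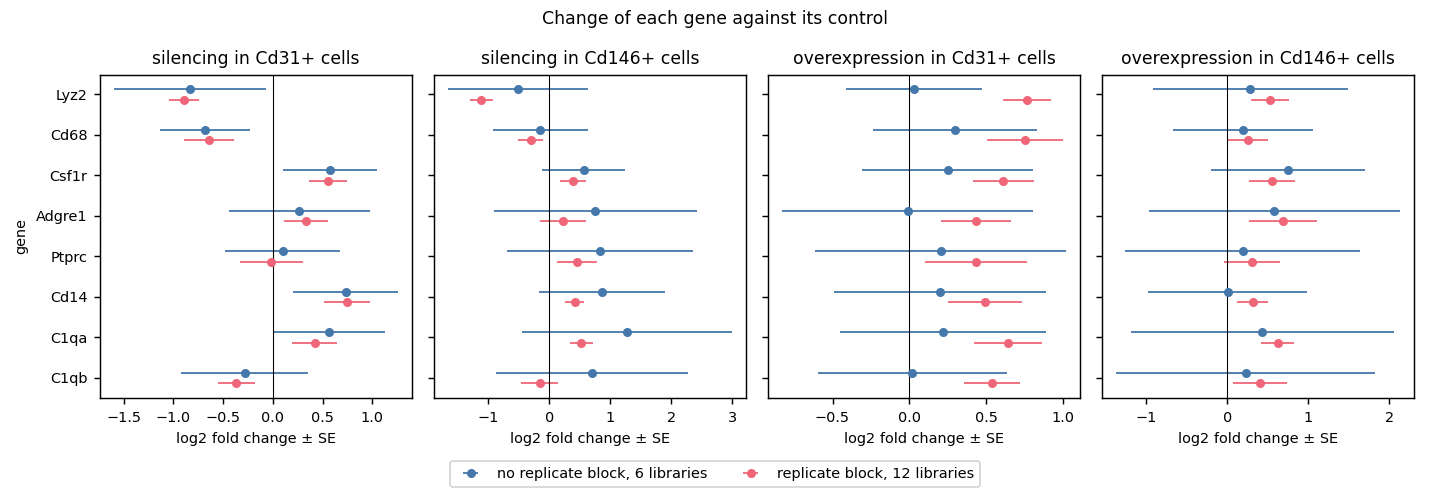
Log2 fold change (± SE) of the 8 detected genes for silencing and overexpression in each population, without a replicate block (blue, 6 libraries) and with one (red, 12 libraries of the population). The SE of Lyz2 with silencing in Cd31+ cells is 0.76 without the block and 0.15 with it.

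Cd68 was lower with P16 shRNA in 4 of 5 pairs, with log2 ratios from -0.83 to 0.12, and with the block gave -0.64 ± 0.21 in Cd31+ cells (edgeR adjusted p = 0.0632). C1qa was higher in 4 of 5 pairs and C1qb lower in 4 of 5. The Adgre1 ratios ran from -2.77 to 0.72, the lowest from 7 counts against 1 in Cd146+ number 3. The Ptprc ratios ran from -0.54 to 0.62.

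**Figure D4:**
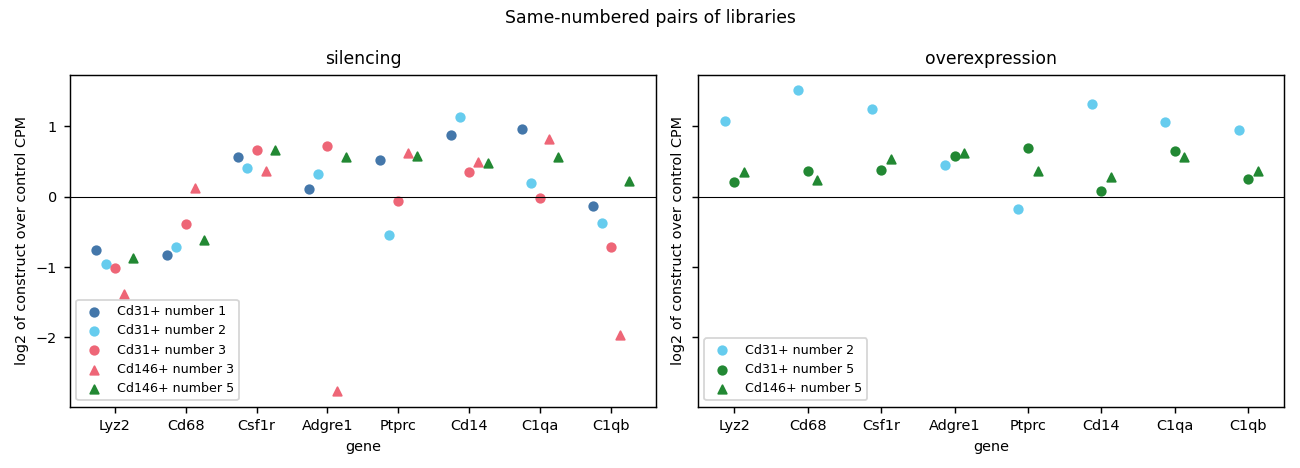
Log2 ratio of construct over control CPM for each detected gene within same-numbered libraries, 5 pairs for silencing (left) and 3 for overexpression (right), circles for Cd31+ and triangles for Cd146+ cells. Lyz2 lies below 0 in 5 of 5 silencing pairs and above 0 in 3 of 3 overexpression pairs.

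The balance between members within a library was also read from the raw counts. C1qa and C1qb, 2 chains of 1 protein, are encoded close together in the genome. The P16 shRNA libraries held 1.36, 1.40 and 1.54 C1qa reads per C1qb read in Cd31+ cells and 1.52, 1.87 and 2.40 in Cd146+ cells. The nc shRNA libraries held 0.652, 0.913 and 0.943, and 0.350, 0.743 and 1.20, so neither population's groups overlapped. Empty vector and P16 libraries lay between 0.866 and 2.22 and did overlap. The ratio of 2.40 rests on 12 C1qa and 5 C1qb counts, and that of 0.350 on 7 and 20. That of 2.22, in the Cd146+ empty vector library of number 4, rests on 20 and 9. It lay above every P16 shRNA library except the one at 2.40. Of the other ratios read, silencing groups did not overlap for C1qa per Lyz2 in Cd31+ cells alone and for Cd14 per Lyz2 in Cd146+ cells alone. For Csf1r per Lyz2 they overlapped in both populations. The pair C1qa and C1qb was chosen after its values were seen and no test was made. The share of all gene pairs that separate as fully was not computed.

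**Figure D5:**
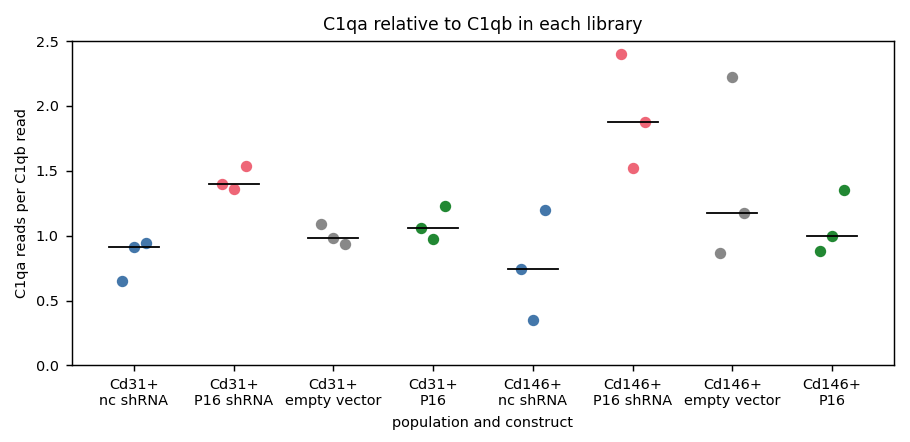
C1qa reads per C1qb read in each library by population and construct, with a bar at the median of each group of 3. The P16 shRNA libraries lie at 1.36 or above and the nc shRNA libraries at 1.20 or below.

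Overexpression gave 0 calls among the 8 members, as it did among 14565 genes in Cd31+ cells and 14860 in Cd146+ cells (0.00% each). At an unadjusted p under 0.05, 0 of the 8 passed in either population, against 3.73% and 3.53% of all genes, and the adjusted DESeq2 Wald test gave 0 of 8 too, against 0.0275% and 0.00677%. The median log2 fold change of the 8 was 0.20 in Cd31+ cells and 0.26 in Cd146+ cells, beside 0.01 and 0.00 for all genes tested.

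In Cd31+ cells, Lyz2 was at 84.1, 33.5 and 78.8 CPM with the empty vector (numbers 1, 2 and 5) and at 70.7, 37.5 and 91.4 with P16 (numbers 2, 3 and 5). The groups overlapped throughout. Within numbers 2 and 5 of Cd31+ cells and number 5 of Cd146+ cells, 7 of the 8 detected members were higher with P16 in 3 of 3 pairs, as were 13.4% of 14245 genes, and Ptprc in 2 of 3. The endothelial list was higher with P16 in these 3 of 3 pairs as well, going from 90.6 to 130 and from 309.6 to 389 FPKM in Cd31+ numbers 2 and 5 and from 370.1 to 411 FPKM in Cd146+ number 5, and its part in the members' values was not tested. With the block over 6 libraries in Cd31+ cells, 6 of the 8 had a higher value at an unadjusted p under 0.05, beside 3.73% of all genes, led by C1qa (0.84 ± 0.26, unadjusted p = 0.00130), and 0 of the 8 passed the adjusted threshold (edgeR, C1qa adjusted p = 0.124). With the block over 12 libraries 5 of the 8 were higher at an unadjusted p under 0.05 (edgeR), beside 5.98%. The block over 6 libraries compares P16 with the empty vector only within numbers 2 and 5. The 8 members move together over libraries, so these counts, and the 7 of 8 within pairs, are not of separate observations.
In Cd146+ cells only number 5 was shared, and the block over 12 libraries gave 1 of 8 at an unadjusted p under 0.05, beside 1.06%, C1qa with 0.62 ± 0.21.

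All 8 detected members had a higher fitted level in Cd146+ than in Cd31+ cells over the 24 libraries, with a median log2 difference of 0.76 beside 0.02 for all genes. Their summed level ran from 20.2 to 122 FPKM in Cd31+ cells, with a median of 61.3, and from 11.1 to 276 FPKM in Cd146+ cells, with a median of 54.1, so the populations overlapped. For 5 of the 8 the direction turned with other fits: with a term for the sex-linked transcripts, chosen after seeing the data, Lyz2 gave -0.49, Adgre1 -0.91, Ptprc -0.72, C1qa -0.78 and C1qb -0.67, and with a block of the numbers that both populations share they gave -0.19, -0.67, -0.50, -0.64 and -0.53. Cd68, Csf1r and Cd14 stayed higher in Cd146+ cells under both. At an adjusted p under 0.05, 0 of the 8 passed (7.78% of 16524 genes did), and at an unadjusted p 3 did, beside 13.6% of all genes that were higher: Cd14 (1.27 ± 0.45, edgeR adjusted p = 0.0855), Csf1r (0.95 ± 0.37, 0.117) and Cd68 (0.77 ± 0.37, 0.187). By the DESeq2 Wald test Cd14 passed, with an adjusted p of 0.0266, as did 13.2% of all genes. Without the 3 Cd146+ libraries of number 3, Cd14 (1.60 ± 0.39, edgeR adjusted p = 0.0163) and Csf1r (1.18 ± 0.38, 0.0473) passed, beside 12.6% of all genes. Without the Cd146+ empty vector library of number 4, Csf1r passed (1.11, edgeR adjusted p = 0.0427).

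A list of 45 other macrophage genes was read beside the members. Of these, 37 were tested for replicate number in Cd31+ cells and 32 were called, and 40 of 42 in Cd146+ cells. Among all genes tested, replicate number was called for 29.0% and 59.7%. With silencing and no block, 0 of 33 in Cd31+ cells and 0 of 39 in Cd146+ cells were called, with medians of -0.05 and 0.49. The Cd146+ groups shared only numbers 3 and 5. With the 12-library block, 1 rose and 3 fell of 37 in Cd31+ cells, where 16.8% of 15426 genes were called, and 1 rose and 2 fell of 42 in Cd146+ cells, where 8.33% of 15915 were. Neither share exceeded that of all genes. Lgals3, a galectin, and Gpnmb, a glycoprotein of lysosome-rich cells, fell in both (log2 fold change of Lgals3 -1.36 ± 0.12 and -0.83 ± 0.13, of Gpnmb -1.22 ± 0.19 and -1.04 ± 0.17). In Cd31+ cells Mertk, a receptor for dying cells, fell too (-0.91 ± 0.14), and Clec7a, a receptor for fungal glucans, rose (1.87 ± 0.43). In Cd146+ cells Cd53, a leukocyte tetraspanin, rose (1.04 ± 0.20). With overexpression 0 were called, without a block or with 1 over 12 libraries.

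Among 12 Kupffer cell genes, 7 were tested in Cd31+ and 8 in Cd146+ cells with the 12-library block, and 3 and 2 of them were called, beside 16.8% and 8.33% of all genes. Silencing was called for Cd5l, which fell (-3.45 ± 0.74 and -1.73 ± 0.39), and for Hmox1, a heme oxygenase, which fell as well (-0.75 ± 0.12 and -1.14 ± 0.15). Slc40a1 rose in Cd31+ cells (0.61 ± 0.19). Of 10 genes of endotoxin sensing, 9 were tested in each population, and 2 were called in Cd31+ and 1 in Cd146+ cells, shares near those of all genes. Tlr4, the receptor that Cd14 serves, fell in both (-0.75 ± 0.18 and -0.51 ± 0.12), and the adaptor Myd88 rose in Cd31+ cells (0.53 ± 0.12).
Of 9 genes of antigen presenting cells, H2-DMb1 passed in Cd31+ cells without any block (1.45 ± 0.22, edgeR adjusted p = 0.0338). With the 12-library block H2-DMb1 rose in both populations (1.43 ± 0.21 and 0.89 ± 0.22). Cd74, the invariant chain, rose in Cd31+ cells (2.38 ± 0.43), with at most 47 counts in any library there. Thus 2 of 4 and 1 of 5 tested were called, beside 16.8% and 8.33% of all genes. Csf1 rose in Cd31+ cells (0.52 ± 0.11). These lists are small, and their shares describe these genes alone.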

How the data were processed

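The 24 libraries were assigned to groups by the sample labels. The count values were deposited by the authors as raw reads per gene, and the deposited FPKM were scaled by the authors for gene length and library depth. Novogene did the sequencing and analysis; the labels' processing notes name fastp and mm9, the table's coordinates did not match GRCm38 (3.09% of 21863 starts within 100 bases), and the aligner is not given in the sources used here. The strand setting of the counting is not given either. Authors' fold changes and p-values were not used.

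Counts were fitted with edgeR 4.0.16 (R 4.3.3; filterByExpr, TMM, robust quasi-likelihood, Benjamini-Hochberg over all genes tested). DESeq2 1.42.0 was an alternative. Scripts were tested on simulated data. Members, lists and tests were chosen with earlier results of these data known. Named genes were the 10 members, Cdkn2a, up to 5 genes of a list by highest mean FPKM or those with an adjusted p under 0.05, and the 10 most alike genes. Timd4, Adgre4, Spic, Clec1b and Lyz1 fall outside this rule and were named after their values were seen. Same-numbered libraries paired within populations (median correlation of deviations 0.516 over 13 pairs in Cd31+ cells, lowest 0.343, and 0.696 over 10 in Cd146+ cells, lowest 0.373). Between populations they were less alike and were not taken as paired (median 0.104 over 27 pairs, from -0.0477 to 0.593, beside a median of -0.00812 for unlike numbers).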

Additional observations from a re-analysis of the deposited data

How the results depend on the processing

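For silencing in Cd31+ cells 186 genes were called, 2703 with the block over 6 libraries and 2586 over 12, with 2 members called in each, and 373 over 12 libraries without a block. For silencing in Cd146+ cells 0 genes were called, 0 with the block over 6 libraries, 1326 over 12 with 1 member, and 11 over 12 without a block. For overexpression 0 were called, 92 and 1 with the blocks in Cd31+ cells and 2 over 12 libraries in Cd146+ cells. No paired analysis was possible because only number 5 was shared for overexpression in Cd146+ cells over 6 libraries. The nested block gave 13 genes for the difference of overexpression. Under the 12-library block Ptprc with silencing in Cd31+ cells gave -0.013 and C1qb with silencing in Cd146+ cells -0.16 (-0.24 over 6), and Adgre1 with overexpression in Cd31+ cells 0.43 (0.53 over 6), each with its sign changed. Between the populations, whose numbers were not taken as paired, a block of shared numbers gave 2140 calls and 1 member, Csf1r, with Lyz2 at -0.19, Adgre1 at -0.67, Ptprc at -0.50, C1qa at -0.64 and C1qb at -0.53. The cause was not tested.

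All genes with at least 1 count gave 1294 calls for silencing in Cd31+ cells, 10 for overexpression there, 19 for silencing in Cd146+ cells and 513 between the populations, where 1286 was the count reported, and Cd14 with overexpression in Cd146+ cells -9.4e-05. The DESeq2 Wald test gave 1103, 4, 333, 1 (overexpression in Cd146+ cells), 2183 with 1 member, and 3 for the difference of overexpression. Control constructs only gave 0 between the populations, and leaving out the Cd146+ libraries of number 3, chosen after seeing the data, 2127 with 2 members.
A term for the sex-linked transcripts, also chosen after seeing the data, changed the sign of Lyz2 (-0.0078), Ptprc (-0.16) and C1qb (-0.072) with overexpression in Cd31+ cells, of C1qb with overexpression in Cd146+ cells (-0.012), of Csf1r (-0.048), Adgre1 (-1.16), Ptprc (-0.48), Cd14 (-0.10), C1qa (-0.37) and C1qb (-1.27) with silencing in Cd146+ cells, and of Lyz2 (-0.49), Adgre1 (-0.91), Ptprc (-0.72), C1qa (-0.78) and C1qb (-0.67) between the populations.

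Without each library in turn, no member was called in the 4 comparisons of constructs, and log2 fold changes that changed sign had these ranges. For silencing in Cd31+ cells, -0.34 to 1.04 for Adgre1, -0.62 to 0.44 for Ptprc, -0.13 to 0.94 for C1qa and -0.99 to 0.21 for C1qb. For silencing in Cd146+ cells, -1.25 to 1.06 for Lyz2, -0.61 to 1.12 for Cd68, -0.067 to 1.09 for Csf1r, -0.63 to 2.91 for Adgre1, -0.42 to 2.99 for Ptprc and -0.031 to 2.76 for C1qb. For overexpression in Cd31+ cells, -0.29 to 0.31 for Lyz2, -0.085 to 0.64 for Cd68, -0.17 to 0.52 for Csf1r, -1.28 to 0.43 for Adgre1, -1.17 to 0.69 for Ptprc, -0.35 to 0.85 for Cd14, -0.53 to 0.66 for C1qa and -0.59 to 0.44 for C1qb. For overexpression in Cd146+ cells, -1.26 to 1.55 for Lyz2, -0.96 to 1.16 for Cd68, -0.019 to 1.82 for Csf1r, -1.83 to 2.56 for Adgre1, -2.52 to 1.76 for Ptprc, -1.37 to 0.73 for Cd14, -2.43 to 2.21 for C1qa and -2.11 to 1.76 for C1qb. Calls among all genes then ran from 0 to 64 for silencing in Cd31+ cells, from 679 to 1609 between the populations and from 0 to 12 for the difference of overexpression, and members called between the populations from 0 to 1, where Csf1r passed without the Cd146+ empty vector library of number 4 (1.11, edgeR adjusted p = 0.0427, range 0.81 to 1.11). Leaving out any 1 of the 6 libraries moved the count for silencing in Cd31+ cells, with 0 calls without any 1 of the P16 shRNA libraries. Of the 10 most alike genes, 6 were among the top 10 with a prior count of 0.5 and 7 with group deviations. All 160 group levels moved by less than 1 SD under other scalings. Depth limits Adgre1, Ptprc, C1qa and C1qb in the Cd146+ libraries of number 3, where counts were 1 to 20.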
